A study of Mus musculus with 4 samples.

Results

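The genes described here encode the enzymes of fatty acid oxidation in mitochondria and peroxisomes and the peroxins, the Pex proteins that build peroxisomes. They were chosen by symbol from the authors' comparison of mouse morulae, and 55 of its 13658 genes matched. Of these, 27 were classed under mitochondrial oxidation, 10 under peroxisomal oxidation, 16 are Pex genes, and the other 2, Acat2 and Acat3, encode cytosolic thiolases. The morulae were wild-type embryos, injected as zygotes with a pool of small interfering RNAs and cultured in M16 medium. In the siNr1h2 group the pool was directed against Nr1h2, which encodes the oxysterol receptor LXRβ, and in the control group (siNT) it was a non-targeting pool. Each embryo received 4 to 5 pL at 100 µM. Each group had 2 samples of polyadenylated RNA, and the labels give neither the number of embryos per sample nor their strain, so p-values measure only the spread between these samples, which may be technical. In RNA from whole embryos, fewer cells of a type and less RNA per cell cannot be told apart. The table gives 1 mean per gene over all 4 samples and no value per sample, so the depth of each sample is unknown.

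Long-chain fatty acids are activated to acyl-CoA, carried into mitochondria as carnitine esters and shortened there by a repeated spiral of dehydrogenation, hydration, a further dehydrogenation and thiolytic cleavage. The flavin-linked dehydrogenases pass their electrons through the electron transfer flavoprotein to the respiratory chain. Peroxisomes shorten very long and branched acids in a similar spiral that starts with an oxidase and makes hydrogen peroxide. Their enzymes are folded in the cytosol and imported by the Pex machinery. Preimplantation embryos draw on stored lipid, and blocking fatty acid oxidation is known to impair their development.

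The targeted transcript, Nr1h2, stood at 19.9% of its siNT level in the authors' deposited table, which is 5.03 times lower (95% interval 3.89 to 6.50, DESeq2 adjusted p = 3.61e-31). All 10 marker genes of morulae and early blastomeres had mean normalized counts from 90.8 to 2181 in the authors' deposited table. Of these, the keratin gene Krt8 was lower in siNr1h2 (log2 fold change -0.50 ± 0.14, SE, adjusted p = 0.0211). Of 7 cumulus and granulosa markers, 2 were listed, with means of 1.94 and 2.89, and of 3 sperm markers 0 were listed. Of 3 blood and 3 liver markers 1 each was listed, Hba-a1 at a mean of 24.6 and Apoa1 at 193, and neither passed the test in the authors' deposited table.

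No member of the set passed the test. At an adjusted p of 0.05 (Wald test of DESeq2, Benjamini-Hochberg adjustment over 12069 genes), 0 of the 52 members with an adjusted p were called, beside 1.98% of all genes in the authors' deposited table. The smallest adjusted p was 0.260, that of Acaa2. At an unadjusted p of 0.05, 4 of the 55 members (7.27%) passed, beside 12.0% of all genes. These 4, Acaa2, Hadha, Eci1 and Acaa1b, all lay above 0, where 5.37% of all genes passed upward. In all, 30 members (54.5%) had a log2 fold change above 0, as did 51.0% of all genes. Centring on genes with means of at least 500 put 36 members (65.5%) above 0, beside 55.8% of all genes. The median of ribosomal protein genes was 0.11, and centring on it put 25 members (45.5%) above 0, beside 38.1% of all genes.

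The intervals of most members were narrow enough to bound the change between these samples. Like the p-values, the intervals rest on 2 samples per group, and the spread they measure may be technical. The 95% interval lay within a 2-fold change in either direction for 45 of 55 members (81.8%), beside 60.1% of all genes. It lay within a 1.5-fold change for 25 members (45.5%), beside 36.0% of all genes. The members had higher counts than the average gene, with a median mean normalized count of 301 against 142 over all genes in the authors' deposited table. A member of median precision would have been called at a change of 1.55 times. That limit ran from 1.31 times for Etfa to 3.92 times for Cpt1c among members with an adjusted p.

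**Figure D1:**
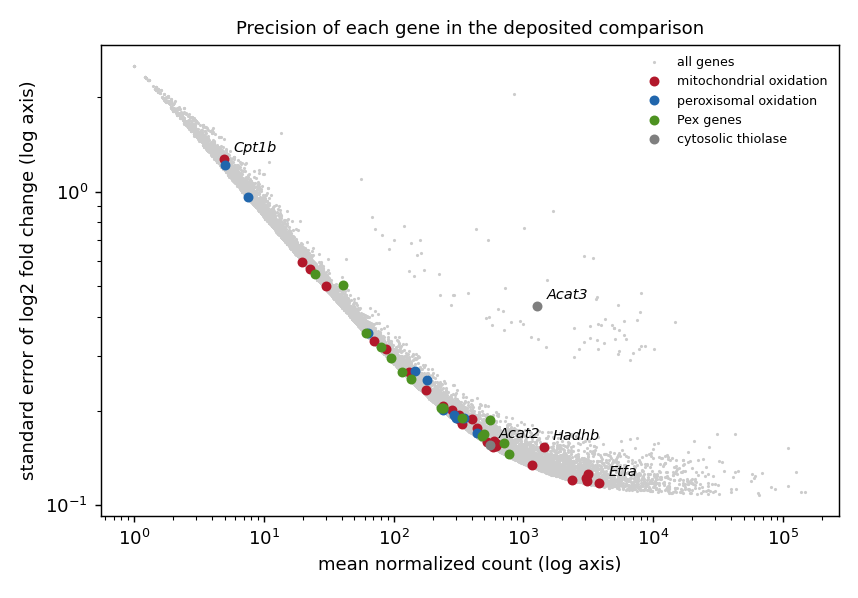
Standard error of the log2 fold change against the mean normalized count (both log axes) for all 13658 genes (grey) and the 55 members (coloured by class), from the authors' deposited table. Acat3 stands apart from the other members, with a standard error of 0.43 above those of the 100 genes nearest to it in mean.

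Levels were compared between genes as the mean normalized count per kilobase, dividing by the median length of each gene's protein-coding transcripts. They are means over both groups with no spread between samples. Among the mitochondrial genes the level ranged from 3537 for Etfb to 1.70 for Cpt1b, with a median of 155 against 54.7 over all genes. Both ends of that range are uncertain, since annotated gene models on the same strand share much of the sequence of Etfb and of Cpt1b. The genes of the electron transfer flavoprotein, Etfb and Etfa (2757), stood at the 96.1 and 95.1 percentiles of all genes. Acadl (1616), Acadm (1486) and Hadh (1325) followed. Peroxisomal oxidation genes had a median level of 114 and none exceeded the 206 of Eci2. For the Pex genes the median was 77.8, from 14.0 for Pex11g to 425 for Pex3. Using the longest transcript in place of the median length kept the same 5 genes at the top.

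**Figure D2:**
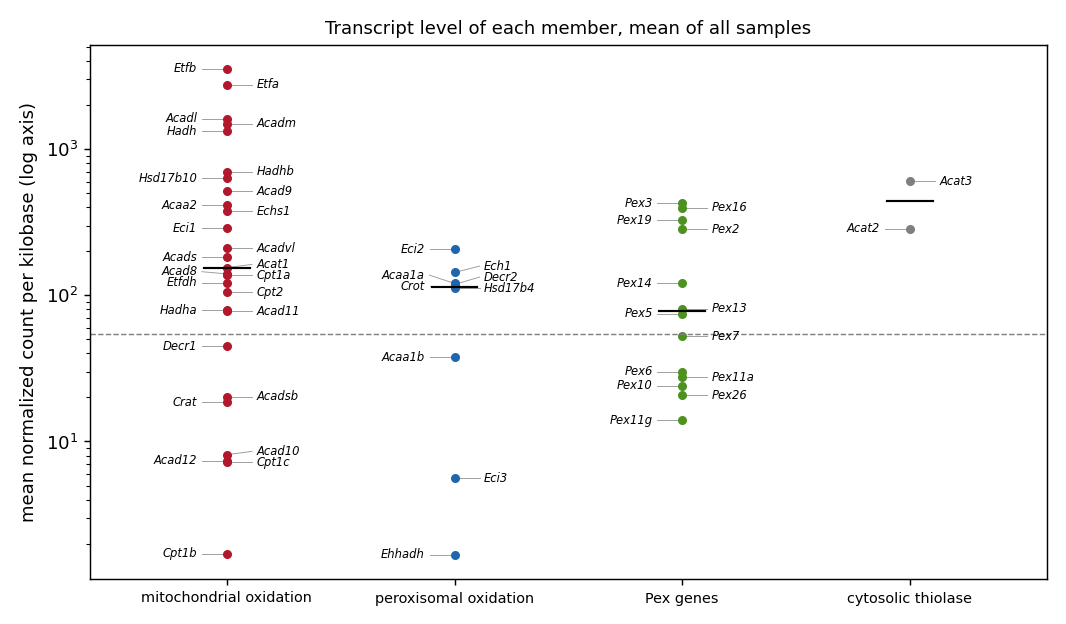
Mean normalized count per kilobase of transcript (log axis) by class for 51 members. Points are genes, black bars the medians of whole classes, and the dashed line the median of all genes (54.7). Etfb, Etfa, Acadl, Acadm and Hadh stand highest, and Cpt1b and Ehhadh lowest.

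The mitochondrial genes had a median log2 fold change of 0.11, beside 0.01 over all genes in the authors' deposited table. Of the 27, 15 lay above 0 and 12 below, and 0 of 26 with an adjusted p were called. Weighted by precision, their mean was 0.04, and the median of the 23 genes with a mean of at least 50 was 0.03. The straight-chain spiral held 22 of the 27, without Acad8, Acadsb, Acat1, Cpt1c and Hsd17b10, and had a median of 0.08. The interval lay within a 2-fold change for 24 of the 27.

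Of the 5 genes of the carnitine acyltransferase family placed in the mitochondrial class, Cpt1a had the narrowest interval. Cpt1a, the outer-membrane acyltransferase that commits long-chain acids to oxidation, had a log2 fold change of 0.16 ± 0.16 (SE) at a mean of 590 by the authors' deposited table. This is an interval of 0.899 to 1.39 times the siNT level. Cpt2, which returns the acyl group to CoA inside, stood at 0.14 ± 0.23 (mean 178), and Crat, the acetyltransferase found in both organelles, at -0.17 ± 0.33 (mean 71.3) in the authors' deposited table. The muscle form Cpt1b (mean 4.93) had no adjusted p, and its log2 fold change of 1.96 ± 1.27 spans 0.691 to 21.9 times. The annotated model Gm44502 shares 2744 exonic bases with Cpt1b on the same strand, so the level of Cpt1b is uncertain. Cpt1c, the neuronal form, had a mean of 19.8 and stood at 0.11 ± 0.60 in the authors' deposited table. At these counts the interval of neither isoform lies within a 2-fold change.

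The acyl-CoA dehydrogenases open each turn of the spiral and differ in chain length. Acadl and Acadm, for long and medium chains, had means of 3096 and 3043 and log2 fold changes of 0.03 ± 0.12 (SE) and -0.20 ± 0.12 by the authors' deposited table. Acadl changes sign when the values are centred on ribosomal protein genes (-0.07). Acadvl, for very long chains, stood at 0.26 ± 0.18 (mean 440) and Acads, for short chains, at 0.29 ± 0.18 (mean 339) in the authors' deposited table. The intervals of these 4 genes overlap. Acadvl shares 976 exonic bases with Dvl2 on the opposite strand, and the library kits do not mark strand, so some of its reads may belong to Dvl2. Per kilobase, Acadl and Acadm were far above Acadvl (210) and Acads (181.5). Acad9, needed for assembly of respiratory complex I, stood at 0.13 ± 0.13 (mean 1156), and its interval of 0.911 to 1.31 times lies within a 1.5-fold change. Acad8 and Acadsb, which serve valine and isoleucine breakdown, stood at 0.11 ± 0.19 and 0.29 ± 0.32 by the authors' deposited table. Acad10 and Acad12 share 95.3% identity over 1614 bases of transcript, so their reads may be split between them. Both were rare, with means of 30.3 and 22.7 and values of -0.00 ± 0.50 and 0.38 ± 0.57 by the authors' deposited table. The remaining gene, Acad11, stood at -0.11 ± 0.21 with a mean of 242.

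Electron transfer was the step with the smallest median standard error, 0.13. Etfa and Etfb, the subunits of the flavoprotein, had log2 fold changes of -0.02 ± 0.12 (SE) and -0.13 ± 0.13 by the authors' deposited table. Etfdh, which hands the electrons to ubiquinone, stood at -0.05 ± 0.20. All 3 intervals lay within a 1.5-fold change, from 0.843 to 1.16 times for Etfa, 0.768 to 1.08 for Etfb and 0.736 to 1.27 for Etfdh. The mean of Etfdh was 281, against 3838 for Etfa and 3158 for Etfb. Centred on genes with means of at least 500, Etfa lay at 0.02, on the other side of 0. The model Gm45233 matches Etfb at 99.7% over 626 of its 893 bases on the same strand, so the level of Etfb is uncertain.

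The later matrix steps held 2 of the 4 members with an unadjusted p under 0.05. These were 2 of 7 genes (28.6%), beside 12.0% of all genes, and neither passed after adjustment. That difference in share was not tested. Acaa2, the thiolase of the matrix, stood at 0.37 ± 0.16 (SE) in the authors' deposited table (p = 0.0187, adjusted p = 0.260), or 1.04 to 1.60 times. Hadha, the α subunit of the trifunctional protein that hydrates and dehydrogenates long chains, stood at 0.45 ± 0.19 in the authors' deposited table. Its DESeq2 p was 0.0214 and its adjusted p was 0.274. Its partner Hadhb, the β subunit with thiolase activity, stood at -0.22 ± 0.15 (adjusted p = 0.569) by the authors' deposited table. Intervals of the subunits were 1.05 to 1.78 times for Hadha and 0.697 to 1.06 times for Hadhb. Centring subtracts the same value from both genes, so it could not change the difference between them. Relative to genes with means of at least 500 they stood at 0.49 and -0.18, and relative to ribosomal protein genes at 0.34 and -0.33. The difference between them was not tested, since that needs values per sample. Annotated copies complicate Hadhb. The models Gm13910 and Gm9108 match it at 99.8% and 97.6% over 1428 and 1426 of 2048 bases, and how reads that match several copies were treated is not given in the sources used here.

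Hadha and Hadhb are transcribed away from each other, and their RefSeq starts lie 272 bases apart (GRCm38.p6). The stretch between them that no exon of GENCODE M21 covers is chr5:30155163-30155247 on the plus strand, 85 of those 272 bases. It is shown because it lies between both starts, and exons cover the other bases between them. Capitals mark GGGCGG, the GC box bound by Sp1-type factors.
Hadha-Hadhb: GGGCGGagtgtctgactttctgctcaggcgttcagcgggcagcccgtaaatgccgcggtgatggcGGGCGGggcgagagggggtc
Of the 41 members with an entry in the promoter table, 10 had a start on the other strand facing away within 1000 bases, and 8 of these faced a gene in the authors' deposited table. Besides Hadha and Hadhb, these included Acad8 with Thyn1, Acad10 with Brap, Acadsb with Ikzf5 and Pex13 with Pus10. None of the facing genes was called, beside 1.98% of all genes, and Hadha and Hadhb, already described as members, are among them. How many of all genes have such a facing start was not counted.

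None of the other matrix enzymes passed the test. Hadh, the dehydrogenase for medium and short chains, stood at -0.04 ± 0.12 (SE, mean 2371) in the authors' deposited table, an interval of 0.824 to 1.14 times. Echs1, the short-chain hydratase, stood at 0.27 ± 0.15, Hsd17b10, an isoleucine enzyme that is also a subunit of mitochondrial RNase P, at -0.20 ± 0.15, and Acat1, the acetoacetyl-CoA thiolase, at -0.09 ± 0.16. Unsaturated acids need auxiliary enzymes. Eci1, the isomerase for odd-numbered double bonds, stood at 0.39 ± 0.19 (p = 0.0399, adjusted p = 0.349), and Decr1, the reductase for even-numbered ones, at -0.45 ± 0.27 (adjusted p = 0.468) in the authors' deposited table. Their intervals were 1.01 to 1.69 times and 0.510 to 1.05 times. Decr1 was the lowest mitochondrial value, and Hadha the highest among those with means of at least 50.

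**Figure D3:**
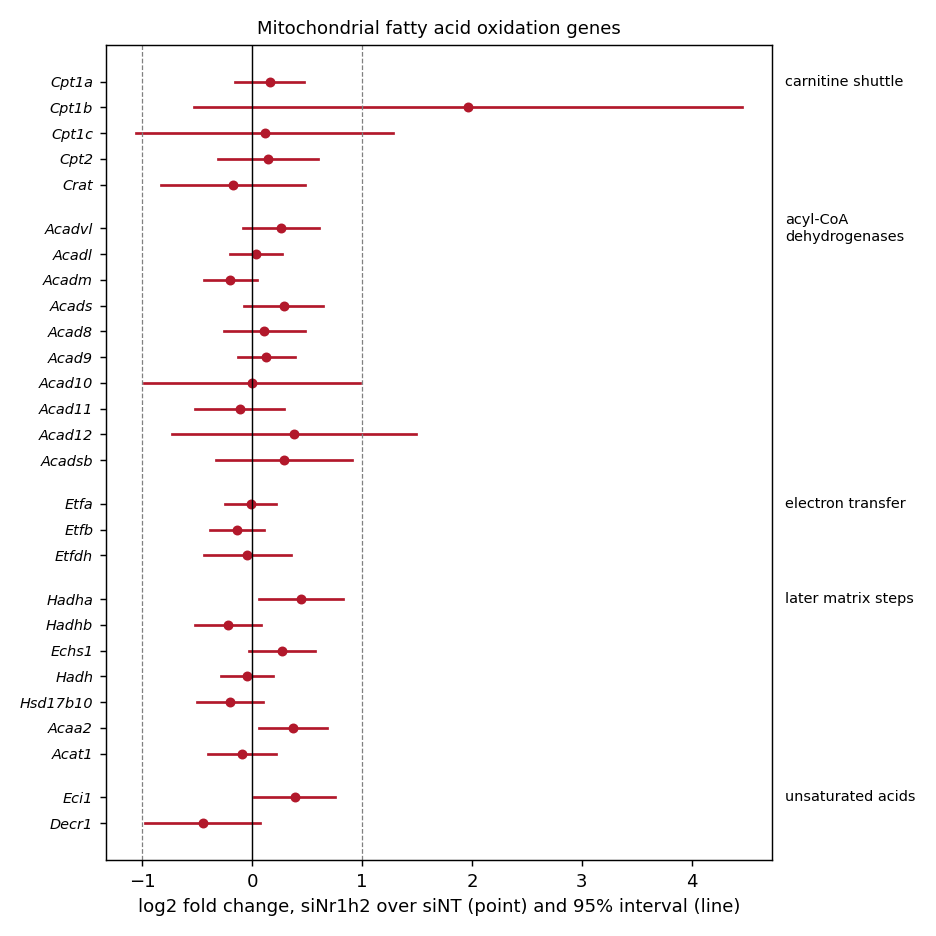
Log2 fold change (siNr1h2 over siNT) with its 95% interval for the 27 mitochondrial oxidation genes, ordered by step, from the authors' deposited table. Dashed lines mark a 2-fold change; the intervals of Hadha, Acaa2 and Eci1 lie above 0 before adjustment, and those of Cpt1b, Cpt1c and Acad12 cross a dashed line.

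The peroxisomal oxidation genes had a median log2 fold change of 0.19 by the authors' deposited table, which became -0.04 when the 4 enzymes known from both organelles (Acad11, Crat, Ech1 and Eci2) were each moved to the other class. Of the 10, 6 lay above 0 and 4 below. None of the 8 with an adjusted p was called, and 7 of 10 intervals lay within a 2-fold change. Hsd17b4, the D-bifunctional protein that carries out a hydration and a dehydrogenation, stood at 0.22 ± 0.19 (SE) in the authors' deposited table, with a mean of 301. Ehhadh, the L-bifunctional protein and a classic target of PPARα in liver, had a mean of 5.02, a value of 0.53 ± 1.22 and no adjusted p according to the authors' deposited table. Eci3 likewise had a mean of 7.57, no adjusted p and a value of -0.01 ± 0.97. Its transcript matches that of Eci2 at 95.2% over 394 of 1347 bases, so some reads may be split between them.

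The peroxisomal thiolase is encoded by a pair of close relatives in the mouse. By the authors' deposited table, Acaa1b stood at 0.70 ± 0.35 (SE) with a mean of 63.4, the highest value of the class. Its DESeq2 p was 0.0479 and its adjusted p was 0.370. In that table Acaa1a had the lowest value, -0.40 ± 0.27 (adjusted p = 0.548), with a mean of 147. Their transcripts are 96.6% identical over 1428 bases, so the value of each is uncertain. Among the remaining enzymes, Crot, which makes octanoylcarnitine for export to mitochondria, stood at -0.25 ± 0.19 with a mean of 346. Decr2, the peroxisomal reductase, stood at 0.16 ± 0.20, the isomerase Eci2 at 0.28 ± 0.19 and the dienoyl-CoA isomerase Ech1 at 0.26 ± 0.25 in the authors' deposited table.

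**Figure D4:**
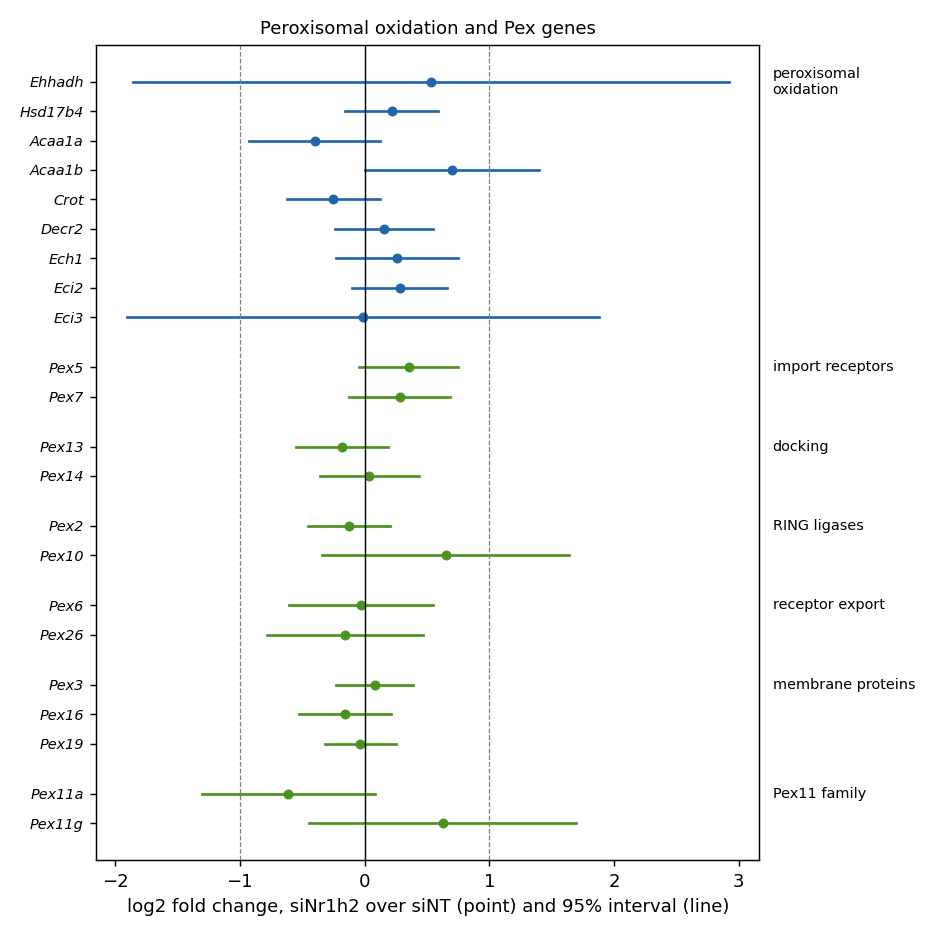
Log2 fold change (siNr1h2 over siNT) with its 95% interval for 9 peroxisomal oxidation genes (blue) and 13 Pex genes (green), grouped by role, from the authors' deposited table. Dashed lines mark a 2-fold change; the interval of Acaa1b alone lies above 0 before adjustment, and no Pex interval drawn leaves 0 out.

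The 16 Pex genes were divided evenly, with 8 above 0 and 8 below, and their median log2 fold change was -0.01 in the authors' deposited table (0.03 when centred on genes with means of at least 500). All had an adjusted p and none was called. None had an unadjusted p under 0.05 either. The interval lay within a 2-fold change for 13 and within a 1.5-fold change for 8. The import receptors Pex5 and Pex7, which carry enzymes with the carboxy-terminal and amino-terminal signals, stood at 0.35 ± 0.20 (SE) and 0.28 ± 0.20. Pex5 had the smallest adjusted p of the class, 0.455. The docking proteins Pex13 and Pex14 stood at -0.18 ± 0.19 and 0.04 ± 0.20 by the authors' deposited table.

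The RING ligases tag the receptor for recycling. Pex2 (mean 501) stood at -0.12 ± 0.17 (SE) in the authors' deposited table. Pex10, far rarer with a mean of 40.7, stood at 0.65 ± 0.51. Pex6, an ATPase that pulls the receptor out, stood at -0.03 ± 0.30, and its membrane anchor Pex26 at -0.16 ± 0.32, by the authors' deposited table. Their means were 95.7 and 80.2, and they would have needed changes of 1.96 and 2.08 times to be called.

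Membrane proteins are placed by Pex3, Pex16 and Pex19, which with Pex2 had the highest means of the class. Pex19, the cytosolic carrier (mean 776), stood at -0.03 ± 0.15 (SE), Pex3, its docking site (mean 711), at 0.08 ± 0.16, and Pex16 (mean 551) at -0.16 ± 0.19 in the authors' deposited table. All 3 intervals lay within a 1.5-fold change. Pex3 shares 249 exonic bases with Adat2 on the opposite strand. The Pex11 proteins elongate peroxisomes before division. Pex11a, the member induced by PPARα agonists in liver, had the lowest value of the class, -0.61 ± 0.35 (adjusted p = 0.458, mean 61.9), an interval of 0.405 to 1.06 times. Pex11g (mean 24.8) stood at 0.63 ± 0.55 in the authors' deposited table. Among genes with means of at least 50, Pex5 had the highest value of the class. Pex6 and Pex19 changed sign when centred on genes with means of at least 500, and Pex3 and Pex14 did so when centred on ribosomal protein genes.

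The cytosolic thiolases differed in precision. Acat2, which makes the acetoacetyl-CoA used for sterol synthesis, stood at -0.01 ± 0.16 (SE) at a mean of 549 in the authors' deposited table. Acat3 stood at 0.38 ± 0.43 at a mean of 1283. The standard errors of the 100 genes nearest to Acat3 in mean had a median of 0.14 and a maximum of 0.34, so 0 of them exceeded its own. The 2 transcripts are 97.7% identical over 1477 bases. Acat3 also shares 571 exonic bases with Tcp1 on the opposite strand, a chaperonin gene with a mean of 8850 and a log2 fold change of -0.15 ± 0.12 by the authors' deposited table. The part of the copy and of the overlap in the standard error of Acat3 was not tested.

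Genes around the spiral were taken from 7 lists of related functions. Of 74 genes present, 70 had an adjusted p, 3 were lower in siNr1h2, 0 were higher and 67 did not pass by the authors' deposited table. The lower genes, Lonp2, Acsl4 and Slc22a5, were 4.29% of the 70, beside 1.52% of all genes called lower. That difference was not tested, since the lists were chosen with earlier results known. Lonp2 encodes the Lon protease of the peroxisomal matrix, which processes and clears imported enzymes. By the authors' deposited table it was 1.86 times lower (1.55 to 2.24 by its 95% interval, adjusted p = 1.95e-08) at a mean of 1154. Acsl4, an acyl-CoA synthetase that prefers arachidonic acid, was 1.85 times lower (1.40 to 2.44, adjusted p = 0.00249) at a mean of 459. Slc22a5 encodes OCTN2, the sodium-dependent carnitine transporter of the plasma membrane, and was 2.85 times lower (1.71 to 4.77, adjusted p = 0.00771) at a mean of 70.7 in the authors' deposited table. No carnitine acyltransferase of the set passed beside it. With Holm adjustment, a stricter correction, Lonp2 passed and Acsl4 and Slc22a5 did not (adjusted p = 0.156 and 0.727).

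By list, activation and entry of fatty acids held 2 lower genes, Acsl4 and Slc22a5, among 14 with an adjusted p (14.3%, beside the 1.52% of all genes), and a median log2 fold change of 0.06 over its 16 genes. The cytosolic carrier Fabp3 stood at -0.24 ± 0.11 (SE, adjusted p = 0.313) in the authors' deposited table. Other peroxisomal matrix and membrane proteins held 2 lower genes among 25 (8%, beside the same 1.52%), Lonp2 and again Acsl4, and a median of -0.02 over 26. Acot8, a peroxisomal thioesterase, stood at 0.45 ± 0.21 and did not pass. None of 8 PPAR and coactivator genes passed in the authors' deposited table, with the retinoid X receptor Rxrb at 0.56 ± 0.23, Ppargc1b at -0.63 ± 0.38 and Esrra at 0.44 ± 0.28. Ppara, Pparg and Ppargc1a were not analysed here. None passed among 6 genes of plasmalogen synthesis (Agps at -0.22 ± 0.13), 6 of organelle fission (Mief1 at -0.17 ± 0.16), 5 of the propionate route (Mut at 0.47 ± 0.25) and 8 of malonyl-CoA control (Prkaa1, an AMP-activated kinase subunit, at -0.35 ± 0.15) in the authors' deposited table.

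**Figure D5:**
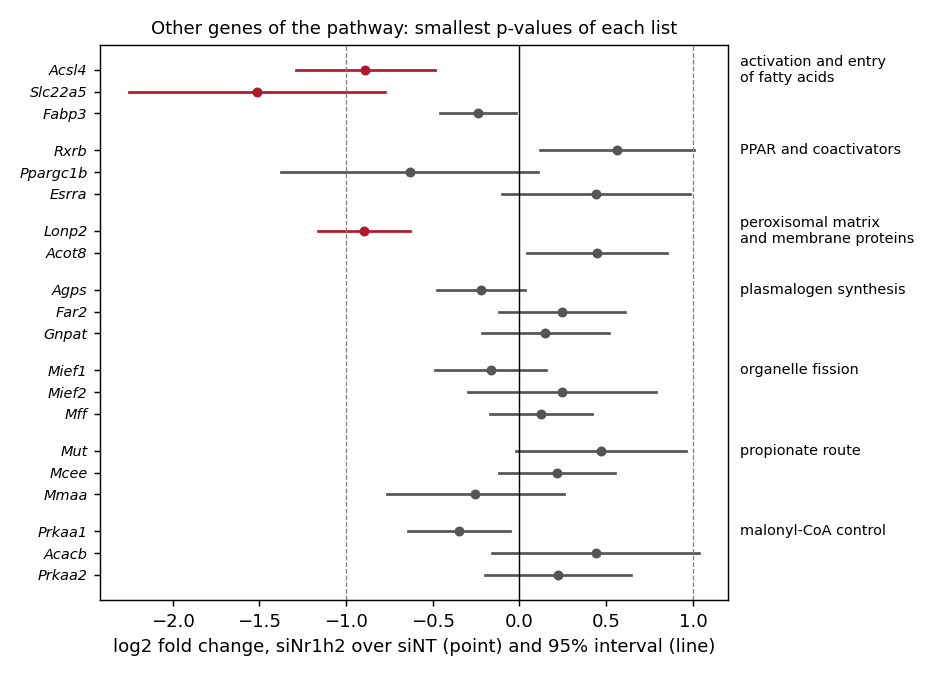
Log2 fold change (siNr1h2 over siNT) with its 95% interval for up to 3 genes with the smallest p-values in each of the 7 related lists, from the authors' deposited table. Red marks adjusted p under 0.05: Acsl4, Slc22a5 and Lonp2 lie below 0, and dashed lines mark a 2-fold change; Acsl4 belongs to 2 lists and is drawn once.

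LXRβ binds DNA with a retinoid X receptor at DR4 elements, in which the half-site AGGTCA is repeated in the same direction after NNNN, and PPARs at DR1 elements, with N between the half-sites. Both strands of RefSeq promoter sequences (GRCm38.p6), from 250 bases before to 50 after each start, were searched for exact matches. For members, 41 of 55 had a sequence. None held a DR4 or a DR1 element, which occurred in 0% and 0.0836% of the 10769 genes of the comparison with a promoter sequence and in 0.0148% and 0.0481% of all 27025 genes of the promoter table. The half-site alone was present in 6 members (14.6%), beside 15.2% of the genes of the comparison and 18.1% of all genes. The longer ERR half-site TCAAGGTCA, which contains AGGTCA, was in 0 members, beside 0.362% and 0.466%. GGGCGG was present in 33 members (80.5%), beside 66.4% and 38.2%. A match of letters is a description of the window only.

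The half-sites are shown for 3 of the 6 members that hold one, enzymes of different steps, since the treatment was directed at a nuclear receptor. Members held one about as often as the genes of the comparison (14.6% and 15.2%). Capitals mark AGGTCA or, where it lies on the other strand, TGACCT, and each sequence is on the strand of its gene, 5′ to 3′. The windows are chr19:3323195-3323224 (plus strand) for Cpt1a, chr11:70015498-70015527 (minus strand) for Acadvl and chr7:140116487-140116516 (minus strand) for Echs1. The capitals begin at positions -94, -87 and -83, counted back from the start.
Cpt1a: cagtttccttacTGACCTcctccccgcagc
Acadvl: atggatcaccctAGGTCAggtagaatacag
Echs1: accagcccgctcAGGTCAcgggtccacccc
The other 3 members with a half-site were Acadm, Cpt1c and Pex11g. None of the 6 was called in the authors' deposited table, and their log2 fold changes ran from -0.20 for Acadm to 0.63 for Pex11g. The promoters of Lonp2, Acsl4 and Slc22a5 held no half-site in the same windows and each held GGGCGG.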

How the data were processed

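Per the labels' protocols, morula RNA was made into libraries with the SMART-Seq v4 and Nextera XT kits, which are known not to keep strand. The submitters' processing notes name mm9, DESeq2, edgeR, Cufflinks 2.2.1, RSEM, HTSeq 0.12.4 and STAR, without roles or settings. The 1 table analysed holds the authors' DESeq2 comparison. Per the file headers, the authors deposited a normalized count signal averaged across samples, the log2 fold change, its standard error, the Wald statistic (a score), the p-value and the adjusted p-value. Checked on the values, the deposited p-values follow from the Wald score, and the adjusted ones are Benjamini-Hochberg values over 12069 genes. The other 1589 have means up to 8.00.

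No test per gene was run again. Folds are powers of 2, and intervals are 95% normal intervals of the deposited standard errors. A change is callable above 3.30 standard errors, the smallest absolute Wald statistic called. Lengths came from GENCODE M21 (GRCm38), by symbol, for 94.6% of genes and all 55 members. That build differs from mm9, so coordinates are given only for RefSeq sequences with their own build. Near-identical copies are transcripts matching at 95% identity or more over at least 200 bases. Scripts were tested on simulated data (Python 3.11.15, pandas 2.3.3, scipy 1.17.1).

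The members and lists were chosen with earlier results of these data known. Named were all members with an unadjusted p under 0.05, the 4 highest means and the extreme fold changes (means of at least 50) of each class, members without an adjusted p, paralogues and subunits, and the genes with the smallest p-values in each related list. Of the alternatives, those that need values per sample could not be run. A few members count in the totals but are not reported one by one here.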

Additional observations from a re-analysis of the deposited data

How the results depend on the processing

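The count of members called stayed at 0 at a threshold of 0.1, with adjustment over all 13658 genes and under both centrings. This held in all members and in each class. A threshold of 0.01 and Holm adjustment are stricter than the main test, so they could only return 0 again. The smallest DESeq2 adjusted p of a member was 0.260, so a threshold of 0.1 could not call one either. The smallest adjusted p of any member was 0.292 (Acaa2) over all genes, 0.187 (Acaa2) centred on the 3755 genes with means of at least 500 and 0.143 (Acadm) centred on 81 ribosomal protein genes. Those centrings subtracted medians of -0.04 and 0.11 and put 6 and 5 members on the other side of 0. For all members and the classes, 20 alternative values, medians or means weighted by precision, ranged from -0.12 to 0.23. Of these, 3 changed sign: all members centred on ribosomal protein genes (-0.07), peroxisomal genes after moving the enzymes of both organelles (-0.04) and Pex genes centred on genes with means of at least 500 (0.03). Keeping only the straight-chain spiral left all 10 peroxisomal genes, so that alternative could only repeat their main median. With 99% intervals, 39 of 55 members lay within a 2-fold change. Lonp2 passed under both centrings, Holm adjustment and adjustment over all genes, and Acsl4 and Slc22a5 did not pass with Holm adjustment (adjusted p = 0.156 and 0.727). The other alternatives gave 0.000199 to 0.00525 for Acsl4 and 0.00174 to 0.0117 for Slc22a5. These alternatives were chosen for the 3 genes after the data were seen. Genes with means under 50 were too imprecise to bound a 2-fold change in 7 of 8 members. No paired analysis was possible because the table holds no value per sample, and leaving out each replicate and a second count test were not run for the same reason.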
